A study of Homo sapiens with 24 samples.

Results

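The genes described here encode the T-cell receptor complex and the proteins that act directly downstream of it. They were taken as a list of 41 gene symbols covering the CD3 chains, co-receptors, T-cell surface receptors, kinases, adaptors, phosphatases and first effectors of the pathway. Of the 15862 genes in the deposited table, 40 carried one of these symbols, and CD27 was not analysed here. The list was not chosen on measured values of single genes, although earlier results from these libraries were known when it was drawn up.

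The antigen-binding chains of the T-cell receptor have almost no cytoplasmic part, and they signal through the CD3 chains. On engagement the kinase LCK phosphorylates the CD3 chains, ZAP70 binds to them and phosphorylates the adaptors LAT and LCP2 (SLP-76), and the assembled scaffold activates phospholipase C, RAS and NFAT. CSK and phosphatases such as PTPN6 (SHP-1) and PTPN22 restrain this cascade, whereas PTPRC (CD45) removes the inhibitory phosphate from LCK. In the thymus many of these genes are switched on at T-lineage commitment, so their RNA levels are often used to place a T-cell leukaemia along that path.

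LOUCY and JURKAT are human T-cell acute lymphoblastic leukaemia lines, each 1 line grown in culture. LOUCY serves as a cell model of early T-cell precursor disease and JURKAT of a more mature form. Each line was measured untreated in 6 libraries, and LOUCY was also measured in 4 libraries each after 24 h in I-BET151 (500 nM), in JQ1 (250 nM) or in DMSO (0.05%), all divided evenly over 2 experiments. JQ1 and I-BET151 are inhibitors of BET proteins, the bromodomain readers of acetylated histones, and DMSO is their solvent. All LOUCY comparisons rest on 1 line, JURKAT was not treated, and replicates are not described as separate cultures, so p-values measure the spread between these libraries.

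Libraries held 4381134 to 7074198 reads in listed genes. Defining T-lineage markers fitted the labels: 8 of 9 were at 1 RPKM or more on average in LOUCY and 9 of 9 in JURKAT, the exception being TCF7 at 0.111 RPKM in untreated LOUCY. CD3D, CD3E, CD3G, CD247, CD7 and LCK among them are also members of the list, so for these the check restates the list. Of the others, GATA3 averaged 47.2 RPKM in untreated LOUCY and 18.7 RPKM in JURKAT, and BCL11B 3.61 and 21.6 RPKM. Untreated LOUCY also held the B-lineage markers CD79A (476.1 RPKM), CD79B and EBF1, with MS4A1 and PAX5 under 1 RPKM, and 3 of 6 myeloid markers (LYZ at 22.6 RPKM, MPO and CD33). The NK-cell marker NKG7 averaged 193 RPKM in untreated LOUCY and 1.27 RPKM in JURKAT. In 3 libraries of experiment 2 the deviation from the group mean fell most steeply with transcript GC content, by 0.281 (DMSO replicate 1), 0.313 (I-BET151 replicate 1) and 0.227 (untreated LOUCY replicate 2) log2 units per 10 percentage points. Among the 35 pathway members tested in LOUCY, the DMSO library held the lowest value of its group for 22 and the I-BET151 library for 21. Where a member's call changed without these libraries, the values without them are given.

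Levels are the authors' RPKM, reads scaled to gene length and library size, so values of different genes can be set side by side. Differences are on the log2(RPKM + 1) scale, which compresses changes of weakly expressed genes, most of all under 1 RPKM. The test was limma with an additive experiment term, and a gene was called at a Benjamini-Hochberg adjusted p under 0.05 over all genes of the fit. In cultures measured in bulk, fewer cells expressing a gene and less RNA per cell cannot be told apart.

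Both lines carried RNA for most of the pathway. On average 35 of 40 members reached 1 RPKM in untreated LOUCY and 36 of 40 in untreated JURKAT, and 24 and 25 reached 10 RPKM. CD3D was the most abundant member in all 5 groups, LCK the second in untreated cells of both lines and in DMSO, and CD3E the third in all 5 groups. Members under 1 RPKM in LOUCY were CD2, CD5, CD8A, CD8B and SKAP1, and those under 1 RPKM in JURKAT were TXK, CD4, CD8B and CD28.

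**Figure D1:**
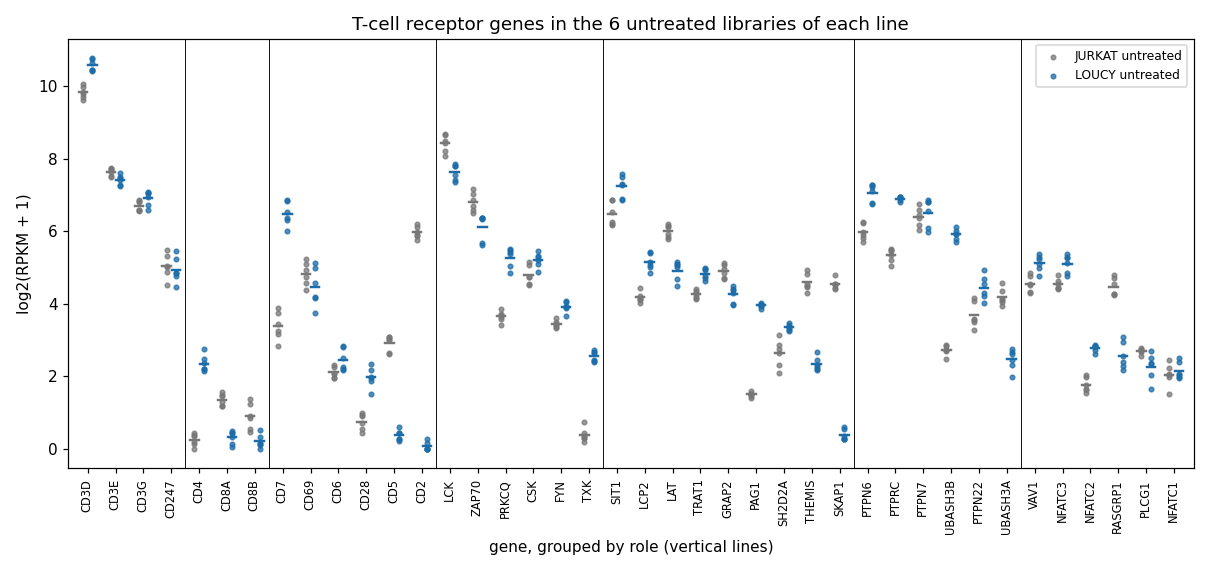
Levels of the 40 genes in untreated cells (vertical axis, log2(RPKM + 1)), with each library as a point and the group mean as a bar (6 JURKAT libraries in grey, 6 LOUCY libraries in blue). CD3D lies at the top in both lines, and CD2 and SKAP1 lie near 0 in LOUCY alone.

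Untreated LOUCY was compared with untreated JURKAT to ask how the lines differ. Of 39 members tested, 22 were higher in LOUCY and 13 lower, against 35.5% of all 11978 genes called higher and 37.5% called lower, so 35 of 39 members (89.7%) and 8752 genes (73.1%) were called in all. The members' median difference was 0.42 and that of all genes -0.02. All 35 called members had the same sign in both experiments, which a call over both experiments favours. CD2, CD5, CD8A and SKAP1 passed the expression filter only through JURKAT and TXK, CD4 and CD28 only through LOUCY, so these had to differ, and the counts are a description of the list.

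The CD3 chains were close between the lines, except CD3D. CD3D (chromosome 11, 118338954 to 118342705 in RefSeq's GRCh38.p14 annotation) ranged from 1359 to 1739.6 with a median of 1490.1 RPKM in LOUCY and from 787 to 1062 with a median of 901 RPKM in JURKAT. Every LOUCY library was above every JURKAT library, and the difference was 0.74 (SE 0.07, adjusted p = 7.18e-08). CD3E, its neighbour, ranged from 151 to 194 with a median of 173 RPKM in LOUCY and from 181 to 215 with a median of 204 RPKM in JURKAT. The lines overlapped, and the difference of -0.23 (adjusted p = 0.0118) lost its call under quantile normalization (adjusted p = 0.0744). It was not called in experiment 1 alone (-0.16, adjusted p = 0.188) or in experiment 2 alone (-0.30, adjusted p = 0.0533).

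CD3G ranged from 95.7 to 134 with a median of 127 RPKM in LOUCY and from 93.6 to 116 with a median of 103 RPKM in JURKAT. Its difference of 0.20 (adjusted p = 0.0355) was lost with voom on recovered reads (adjusted p = 0.293) and without any 1 of 8 libraries (LOUCY replicates 1 to 3 of experiment 1 and 3 of experiment 2, JURKAT replicates 1 and 2 of experiment 1 and 2 and 3 of experiment 2), at adjusted p from 0.0526 to 0.08. CD247, the zeta chain, was not called: it ranged from 21.2 to 43.04 with a median of 28.03 RPKM in LOUCY and from 21.98 to 43.4 with a median of 31.6 RPKM in JURKAT (difference -0.10, 95% interval -0.46 to 0.27). The 2 experiments gave 0.26 and -0.45 for CD247, and it was called lower in LOUCY in experiment 2 alone (adjusted p = 0.0169).

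Co-receptor RNA was low in both lines. CD4, which binds MHC class II, ranged from 3.41 to 5.7 with a median of 3.88 RPKM in LOUCY and from 0 to 0.351 with a median of 0.2197 RPKM in JURKAT, where 21 reads were counted over all 6 libraries (difference 2.1, adjusted p = 2.05e-10). The MHC class I co-receptor chains went the other way, with CD8A at 0.253 ± 0.1502 RPKM in LOUCY and 1.58 ± 0.306 RPKM in JURKAT, and CD8B under the filter at 0.168 ± 0.161 and 0.9198 ± 0.492 RPKM.

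Surface receptors went in both directions. CD2, an adhesion receptor that binds CD58, ranged from 52.8 to 72.7 with a median of 60.03 RPKM in JURKAT, whereas 4 of 6 LOUCY libraries were at 0 and the group held 3 reads in all. The difference was -5.89 (adjusted p = 1.29e-16), a value that depends on the pseudocount. CD5, a receptor that dampens T-cell receptor signals, ranged from 0.1599 to 0.521 with a median of 0.286 RPKM in LOUCY and from 5.104 to 7.48 with a median of 7.14 RPKM in JURKAT (difference -2.53, adjusted p = 1.86e-11). CD7, an early T-lineage surface protein, was the opposite: from 63.7 to 114 with a median of 86.5 RPKM in LOUCY and from 6.11 to 13.8 with a median of 9.18 RPKM in JURKAT (difference 3.1, adjusted p = 6.99e-13). The lines did not overlap for CD7, in a comparison that called 73.1% of all genes. CD2 and CD5 passed the filter only through JURKAT, so their separation is descriptive.

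The costimulatory receptor CD28 was higher in LOUCY (2.98 ± 0.747 against 0.704 ± 0.268 RPKM), as was CD6 (4.62 ± 1.205 against 3.33 ± 0.455 RPKM). CD69, an early activation antigen, was not called over both experiments (difference -0.37, adjusted p = 0.132). It was lower in LOUCY in experiment 1 (difference -1.05, adjusted p = 0.000133) and gave 0.32 in experiment 2, and its interaction with the experiment was not called (adjusted p = 0.0597). It was called without untreated LOUCY replicate 2 of experiment 2 (difference -0.49, adjusted p = 0.0395).

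Of the kinases, LCK and ZAP70 were lower in LOUCY and the other 4 higher. LCK ranged from 162 to 229 with a median of 204 RPKM in LOUCY and from 270.2 to 409 with a median of 349 RPKM in JURKAT (difference -0.80, SE 0.08, adjusted p = 1.84e-07). ZAP70 ranged from 48.2 to 81.7 with a median of 80.5 RPKM in LOUCY and from 89.3 to 143 with a median of 108 RPKM in JURKAT (difference -0.68, SE 0.11, adjusted p = 5.21e-05). Neither kinase overlapped between the lines, although within LOUCY 2 libraries of experiment 2 held under 50 RPKM of ZAP70 and the other 4 about 80 RPKM.

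TXK, a Tec-family kinase, ranged from 4.29 to 5.58 with a median of 4.899 RPKM in LOUCY and from 0.139 to 0.677 with a median of 0.255 RPKM in JURKAT (difference 2.17, adjusted p = 6.04e-11). PRKCQ, the protein kinase C theta that leads to NF-kB, ranged from 27.8 to 44.2 with a median of 41.02 RPKM in LOUCY and from 9.68 to 13.6 with a median of 11.8 RPKM in JURKAT (difference 1.62, adjusted p = 3.24e-09). PRKCQ was well separated between the lines, and TXK passed the filter only through LOUCY, so its separation is descriptive. FYN, the second SRC-family kinase of T cells (14.2 ± 1.46 against 9.91 ± 0.757 RPKM), and CSK, the inhibitor of both SRC-family kinases (36.2 ± 4.87 against 27.1 ± 5.25 RPKM), differed by 0.47 and 0.42.

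Of 9 adaptors, 5 were higher in LOUCY and 4 lower. PAG1, which anchors CSK at the membrane, ranged from 13.6 to 15.2 with a median of 14.5 RPKM in LOUCY and from 1.66 to 2.02 with a median of 1.85 RPKM in JURKAT (difference 2.46, adjusted p = 1.45e-13). SKAP1, an adaptor for integrin activation, ranged from 0.21 to 0.515 with a median of 0.246 RPKM in LOUCY and from 20.2 to 26.6 with a median of 22.1 RPKM in JURKAT (difference -4.15, adjusted p = 8.05e-15), and LOUCY libraries held 2 to 5 reads of it. These adaptors had the largest differences of the group, in opposite directions. SKAP1 passed the filter only through JURKAT, so its difference is descriptive.

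THEMIS, an adaptor needed for thymocyte selection, ranged from 3.56 to 5.31 with a median of 3.85 RPKM in LOUCY and from 18.6 to 29.4 with a median of 21.9 RPKM in JURKAT (difference -2.24, adjusted p = 1.39e-11). LAT, the membrane scaffold (29.5 ± 5.26 against 63.6 ± 7.93 RPKM), and GRAP2 (GADS), which links LAT to LCP2 (18.3 ± 2.87 against 29.1 ± 3.83 RPKM), were also lower in LOUCY. LCP2 itself (34.9 ± 5.55 against 17.1 ± 1.85 RPKM), SIT1 (152 ± 30.7 against 90.2 ± 20.9 RPKM), TRAT1 (27.6 ± 2.89 against 18.2 ± 1.47 RPKM) and SH2D2A were higher. In GENCODE 29, 98.9% of LAT's exon bases lie under a same-strand transcript of another gene, so the LAT counts are uncertain.

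Among phosphatases and UBASH3 proteins, 4 of 6 were higher in LOUCY. The paralogs UBASH3B and UBASH3A, which restrain signalling from receptor-bound kinases, went in opposite directions. UBASH3B ranged from 51.5 to 67.96 with a median of 59.6 RPKM in LOUCY and from 4.53 to 6.26 with a median of 5.63 RPKM in JURKAT (difference 3.19, adjusted p = 6.74e-14). UBASH3A ranged from 2.99 to 5.79 with a median of 4.81 RPKM in LOUCY and from 14.2 to 22.7 with a median of 16.4 RPKM in JURKAT (difference -1.72, adjusted p = 4.83e-10). The lines did not overlap for either gene. PTPRC (118 ± 4.59 against 39.7 ± 4.93 RPKM), PTPN6 (135 ± 21.6 against 62.9 ± 9.98 RPKM) and PTPN22 (21.3 ± 5.27 against 12.2 ± 3.29 RPKM) were higher in LOUCY, and PTPN7, a phosphatase of ERK, was not called (93.2 ± 23.6 against 84.5 ± 15.6 RPKM).

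Effectors were mixed. RASGRP1, the exchange factor that activates RAS downstream of phospholipase C, ranged from 3.497 to 7.49 with a median of 4.56 RPKM in LOUCY and from 17.99 to 26.7 with a median of 20.2 RPKM in JURKAT (difference -1.9, adjusted p = 1.72e-09), with no overlap. PLCG1, the phospholipase itself, was also lower in LOUCY (3.96 ± 1.19 against 5.48 ± 0.334 RPKM). The exchange factor VAV1 and the transcription factors NFATC2 and NFATC3 were higher, by 0.57, 1.02 and 0.58, and NFATC1 was not called (3.49 ± 0.763 against 3.21 ± 0.859 RPKM).

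**Figure D2:**
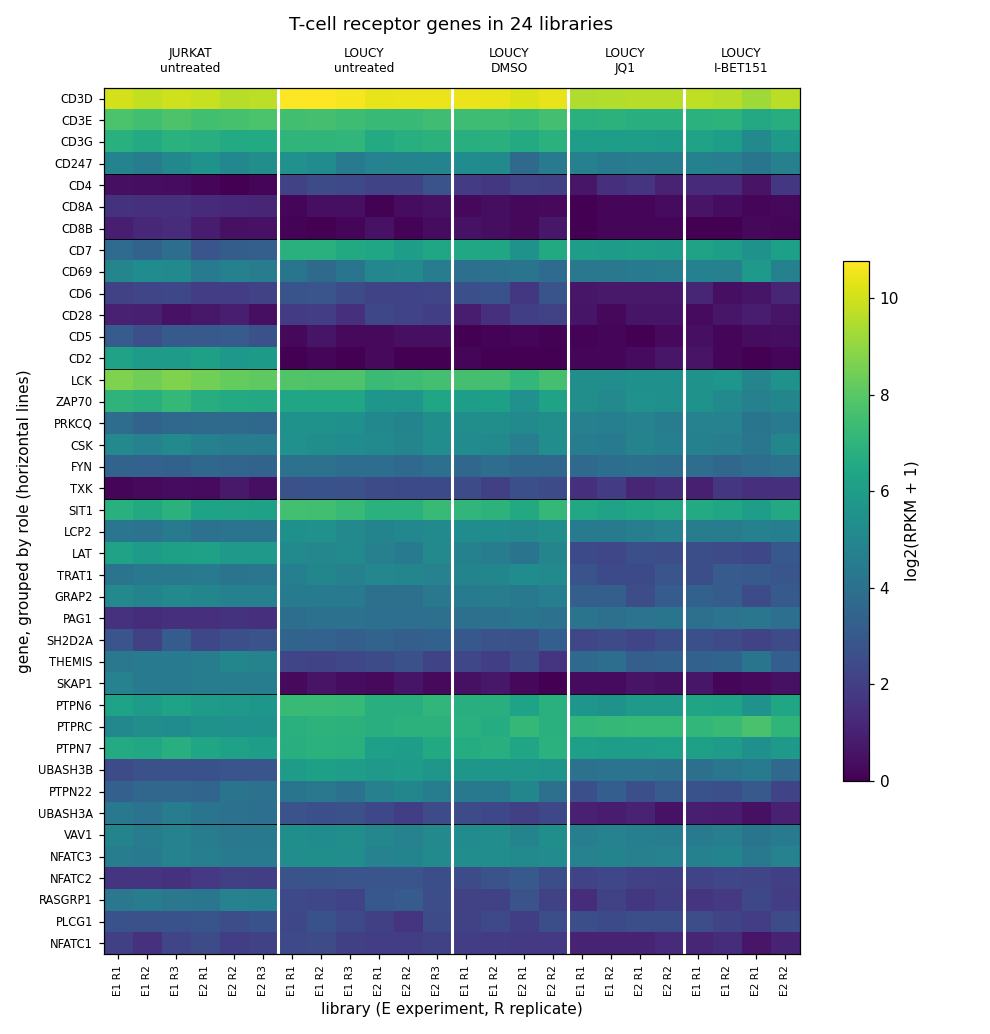
Levels of the 40 genes (rows, grouped by role) in each of the 24 libraries (columns), coloured by log2(RPKM + 1). LCK, LAT, TRAT1, CD6 and UBASH3A are darker in the 8 libraries of JQ1 and I-BET151 than in the 10 other LOUCY libraries, and THEMIS is lighter.

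DMSO was compared with untreated LOUCY as a background of the solvent and of handling. The labels give no culture time for untreated cells, so solvent, handling and culture time cannot be told apart. None of 35 members tested was called by limma, and 9 reached an unadjusted p under 0.05. Over all 11411 genes, 0.0263% were called higher and 0.149% lower, while 1100 reached that unadjusted level. The members' median difference was -0.16, against -0.02 for all genes. LCK held 191, 188, 137 and 193 RPKM in the DMSO libraries and ranged from 162 to 229 with a median of 204 RPKM in untreated cells, and the groups overlapped (difference -0.16, adjusted p = 0.767). SH2D2A (TSAd), an adaptor that binds LCK, showed the smallest unadjusted p among members (0.0016), with 6.58 ± 1.39 RPKM in DMSO and 9.23 ± 0.616 RPKM in untreated cells (adjusted p = 0.15). In experiment 1 alone PTPN6 was called lower (difference -0.47, adjusted p = 0.0181).

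LOUCY treated with each BET inhibitor was compared with LOUCY in DMSO to ask how the pathway responded. With JQ1, 25 of 35 tested members fell and 1 rose, against 15.9% of all 11411 genes called lower and 10.1% called higher. With I-BET151, 25 fell and 3 rose, against 15.9% and 10.3%. The members' median difference was -0.63 with JQ1 and -0.73 with I-BET151, and that of all genes -0.01 and 0.00. Both comparisons use the same 4 DMSO libraries, so their values stand side by side and neither supports the other. Without the 3 libraries of steep GC slope, 27 members were lower and 2 higher with JQ1, and 26 and 3 with I-BET151.

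Members reaching 1 RPKM on average went from 35 in DMSO to 32 with either inhibitor, CD6, CD28 and UBASH3A dropping below, and those reaching 10 RPKM from 24 to 21. These 3 genes, counted among the 25 lower members, would not have passed the filter on the inhibitor libraries alone. The filter therefore favoured a fall in them, and their calls as lower are descriptive. The members' median level was 20.9 RPKM in DMSO, 12.1 with JQ1 and 12.2 with I-BET151. Other lineages' markers also stood at other levels: the summed myeloid markers were 21.1 to 28.95 RPKM in DMSO libraries against 5.18 to 8.59 RPKM with JQ1 and 6.21 to 8.16 RPKM with I-BET151. Of the B-lineage markers, CD79A averaged 402 RPKM in DMSO, 243 RPKM with JQ1 and 223 RPKM with I-BET151, CD79B 88.1, 43.9 and 42.2 RPKM, and EBF1 21.04, 22.5 and 23.2 RPKM. NKG7, the only 1 of 5 listed NK-cell markers with values, averaged 148 RPKM in DMSO, 56.3 RPKM with JQ1 and 56.9 RPKM with I-BET151. PECAM1, from the list of non-haematopoietic markers, averaged 24.1, 3.42 and 3.76 RPKM. KRT8, KRT18 and COL1A1 of that list stayed under 1 RPKM on average in these groups, without a fall shared by all of them. The part of these differences in the results was not tested.

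**Figure D3:**
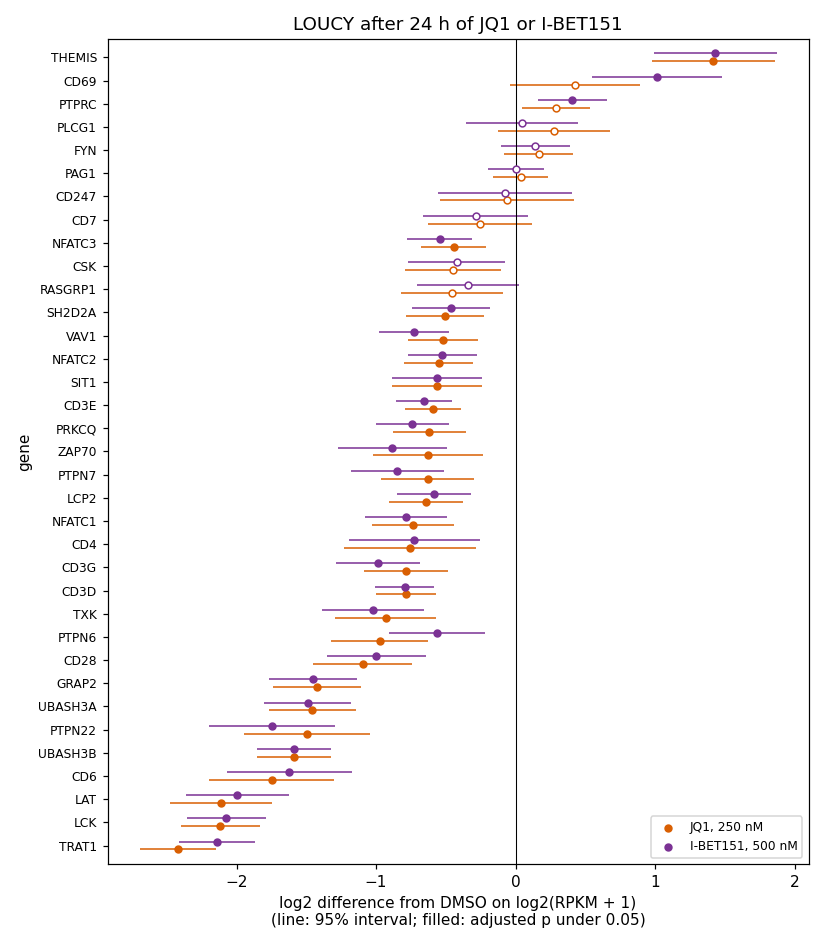
Difference from DMSO on the log2(RPKM + 1) scale (horizontal axis, with 95% intervals) for the 35 genes tested, with JQ1 in orange and I-BET151 in purple, and filled points where the adjusted p was under 0.05. TRAT1, LCK and LAT lie near -2 or beyond with either inhibitor, and THEMIS lies near 1.4.

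Of the CD3 chains, CD3D, CD3E and CD3G fell and CD247 was not called. CD3D held 1405, 1339, 1125 and 1339 RPKM in DMSO, 724, 727, 782 and 773 RPKM with JQ1 and 839, 779, 596 and 797 RPKM with I-BET151. No inhibitor library reached a DMSO library, and CD3D fell by 0.79 with JQ1 (SE 0.10, adjusted p = 1.29e-05) and by 0.80 with I-BET151 (SE 0.10, adjusted p = 1.29e-05). It nevertheless stayed the most abundant member.

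CD3E held 169, 169, 154 and 189 RPKM in DMSO, 113, 119, 108 and 108 RPKM with JQ1 and 115, 123, 90.1 and 105 RPKM with I-BET151, and CD3E fell by 0.59 and 0.66. CD3G held 108, 114, 95.4 and 117 RPKM in DMSO, 62.3, 62.2, 64.8 and 60.1 RPKM with JQ1 and 73.1, 63.7, 34.4 and 53.3 RPKM with I-BET151, and CD3G fell by 0.79 and 0.99. The groups were again separate, and the lowest I-BET151 value of CD3D, CD3E and CD3G came from replicate 1 of experiment 2, 1 of the libraries with a steep GC slope. Without the 3 such libraries CD3G fell by 0.82 with JQ1 and by 0.84 with I-BET151.

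CD247 held 36.2, 33.9, 12.1 and 20.7 RPKM in DMSO, 24.8, 20.3, 22.6 and 22.7 RPKM with JQ1 and 25.4, 23.3, 17.01 and 24.9 RPKM with I-BET151. The DMSO libraries alone spanned 12.1 to 36.2 RPKM, so the differences of -0.06 (95% interval -0.55 to 0.42) and -0.08 (-0.56 to 0.41) are imprecise. For JQ1, experiment 1 gave -0.62 and experiment 2 0.49.

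LCK showed one of the steepest falls. It held 191, 188, 137 and 193 RPKM in DMSO, 38.9, 38.2, 40.7 and 40.96 RPKM with JQ1 and 45.3, 49.4, 28.7 and 43.97 RPKM with I-BET151. Every inhibitor library was below 50 RPKM and every DMSO library above 136 RPKM, and LCK went from rank 2 among members by mean level to rank 9. It fell by 2.12 with JQ1 (SE 0.13, adjusted p = 2.31e-09) and by 2.07 with I-BET151 (SE 0.13, adjusted p = 3.51e-09).

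ZAP70 held 64.7, 67.4, 42.5 and 71.97 RPKM in DMSO, 39.0, 33.0, 42.1 and 41.6 RPKM with JQ1 and 43.9, 33.1, 25.1 and 29.97 RPKM with I-BET151. It fell by 0.63 with JQ1 (adjusted p = 0.0184) and by 0.88 with I-BET151 (adjusted p = 0.00182), and the I-BET151 and DMSO values overlapped by 1 library. The JQ1 call was lost without DMSO replicate 2 of experiment 2 or without either JQ1 library of experiment 1 (adjusted p 0.0573 to 0.0726).

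Among other kinases, TXK fell from 4.38 ± 0.9003 RPKM to 1.84 ± 0.627 RPKM with JQ1 and 1.66 ± 0.529 RPKM with I-BET151, and PRKCQ from 37.96 ± 2.695 RPKM to 24.4 ± 1.63 and 22.6 ± 4.64 RPKM. FYN, the other SRC-family kinase, was not called: it stood at 11.8 ± 1.08 RPKM in DMSO, 13.4 ± 1.096 RPKM with JQ1 and 13.2 ± 1.81 RPKM with I-BET151 (95% intervals of the difference -0.08 to 0.41 and -0.11 to 0.39). CSK was at 32.7 ± 6.41, 23.4 ± 2.91 and 24.2 ± 5.09 RPKM (adjusted p = 0.0527 and 0.0672). CSK was called lower with both inhibitors without DMSO replicate 1 of experiment 2 (adjusted p = 0.0112 and 0.0143), with JQ1 without JQ1 replicate 1 of experiment 2 (0.0338), and with I-BET151 without I-BET151 replicate 2 of experiment 2 (0.0189).

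Most adaptors fell, with 6 of 8 tested adaptors lower in each comparison and a median difference of -0.60 with JQ1 and -0.58 with I-BET151. TRAT1 (TRIM), a transmembrane adaptor associated with the receptor itself (chromosome 3, 108822786 to 108855005), held 28.04, 29.4, 36.2 and 34.04 RPKM in DMSO, 5.74, 4.305, 4.404 and 6.23 RPKM with JQ1 and 4.96, 7.5, 7.21 and 6.32 RPKM with I-BET151. All 8 inhibitor libraries were under 8 RPKM, and TRAT1 fell by 2.42 (SE 0.13, adjusted p = 4.09e-10) and 2.14 (SE 0.13, adjusted p = 1.53e-09), the steepest fall of the 35 members tested in either comparison.

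LAT (chromosome 16, 28984803 to 28990784) held 25.8, 22.9, 16.7 and 28.6 RPKM in DMSO, 4.32, 3.95, 5.16 and 4.903 RPKM with JQ1 and 5.06, 4.56, 4.11 and 6.699 RPKM with I-BET151. The groups were far apart, and LAT fell by 2.11 (adjusted p = 6.62e-08) and 2.0 (adjusted p = 1.36e-07). Here too the LAT counts are uncertain, since 98.9% of its exon bases lie under another gene's same-strand transcript. GRAP2 fell from 21.2 ± 1.63 RPKM to 7.44 ± 1.8 and 7.28 ± 1.898 RPKM, and its partner LCP2 from 36.2 ± 2.51 RPKM to 22.9 ± 2.91 and 23.7 ± 1.51 RPKM. SIT1, an adaptor that binds the phosphatase SHP-2, and SH2D2A fell by 0.56 and 0.51 with JQ1, and the SH2D2A calls were lost with voom on recovered reads (adjusted p = 0.0629 and 0.0593), that with I-BET151 also without DMSO replicate 2 of experiment 2 (0.0634). PAG1 was at 15.8 ± 1.15 RPKM in DMSO, 16.2 ± 1.24 RPKM with JQ1 and 15.9 ± 1.57 RPKM with I-BET151 (95% intervals of the difference -0.16 to 0.23 and -0.20 to 0.20).

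THEMIS (chromosome 6, 127696628 to 127918595) was the member that rose with both inhibitors. It held 3.91, 2.96, 4.74 and 2.21 RPKM in DMSO, 11.8, 13.7, 8.49 and 9.23 RPKM with JQ1 and 9.26, 10.02, 17.01 and 8.34 RPKM with I-BET151. Each inhibitor library exceeded each DMSO library, and THEMIS rose by 1.42 (SE 0.21, adjusted p = 5.43e-05) and 1.43 (SE 0.21, adjusted p = 5.56e-05). Its level with an inhibitor remained under the 23.3 RPKM of untreated JURKAT.

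**Figure D4:**
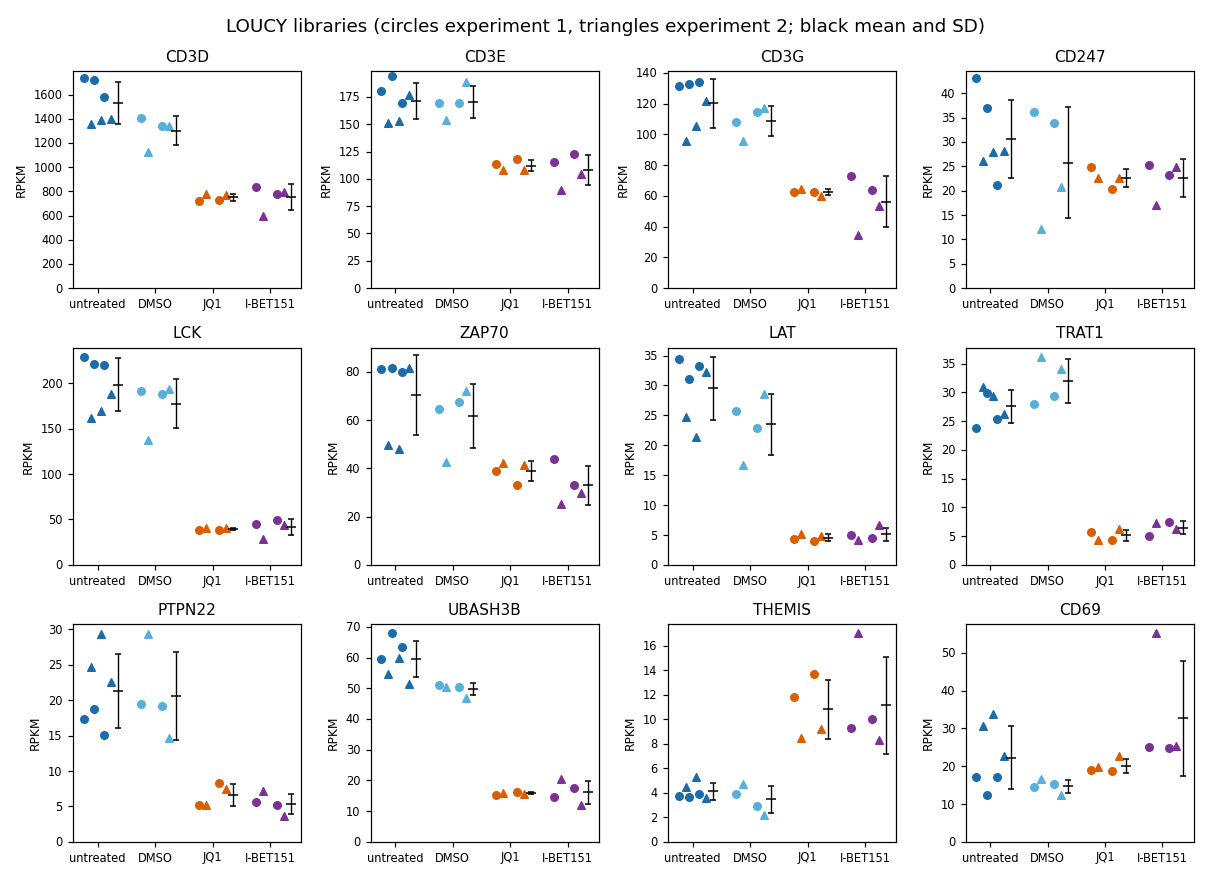
RPKM (vertical axes, from 0) of 12 genes in every LOUCY library by treatment, with experiment 1 as circles, experiment 2 as triangles, and the mean and SD in black. LCK, LAT, TRAT1 and UBASH3B separate the inhibitor libraries from the others, THEMIS rises, and CD247 overlaps throughout.

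The promoters of LCK, TRAT1 and LAT, the members with the steepest falls, and of THEMIS are shown because these genes mark the extremes of the response; they were picked with their values known. Each run is the 250 bases before the start that the RefSeq promoter table (GRCh38.p14) gives; for THEMIS that start lies inside the gene's outermost bounds, so another start lies farther upstream. The bases are given 5′ to 3′ in the direction of the gene, with the RUNX core TGTGGT or its reverse complement ACCACA in capitals. The windows are chr1:32251015-32251264 (plus strand) for LCK, chr16:28984553-28984802 (plus strand) for LAT, chr3:108822536-108822785 (plus strand) for TRAT1 and chr6:127855189-127855438 (minus strand) for THEMIS.
LCK: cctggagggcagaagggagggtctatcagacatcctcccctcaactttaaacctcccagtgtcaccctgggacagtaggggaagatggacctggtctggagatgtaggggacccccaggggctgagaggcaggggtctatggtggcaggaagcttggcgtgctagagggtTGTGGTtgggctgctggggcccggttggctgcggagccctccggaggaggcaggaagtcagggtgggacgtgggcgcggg
TRAT1: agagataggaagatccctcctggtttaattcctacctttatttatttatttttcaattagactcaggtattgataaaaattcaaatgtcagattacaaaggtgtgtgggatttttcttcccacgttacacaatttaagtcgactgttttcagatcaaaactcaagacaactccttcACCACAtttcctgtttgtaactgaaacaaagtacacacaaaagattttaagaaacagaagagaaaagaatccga
LAT: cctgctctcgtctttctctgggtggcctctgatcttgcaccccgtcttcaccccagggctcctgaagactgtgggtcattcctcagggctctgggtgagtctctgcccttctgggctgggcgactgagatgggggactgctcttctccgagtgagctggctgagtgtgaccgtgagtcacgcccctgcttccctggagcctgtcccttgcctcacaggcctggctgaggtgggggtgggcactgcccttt
THEMIS: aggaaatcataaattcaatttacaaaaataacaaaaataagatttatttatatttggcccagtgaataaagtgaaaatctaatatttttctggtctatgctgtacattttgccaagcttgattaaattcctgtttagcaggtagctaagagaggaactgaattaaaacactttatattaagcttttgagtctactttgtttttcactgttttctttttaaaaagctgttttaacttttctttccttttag
The LCK window holds TGTGGT once and the TRAT1 window ACCACA once, and neither form occurs in the LAT and THEMIS windows. The windows differ in base composition, with 64.4% GC at LCK, 63.2% at LAT, 33.2% at TRAT1 and 26.8% at THEMIS. Of the 40 members, 28 had a promoter in the RefSeq table. The RUNX core, searched on both strands, occurred in 5 of these 28 (LCK, CD3D, CD28, TRAT1 and PTPN22) and in 11% of 35116 promoters of that length. The motif AGATAA, known from factors such as GATA3, was searched likewise and occurred in 1 of 28 (PTPN7) and in 9.17% of promoters, and the E-box CAGCTG, which is its own reverse complement, in 3 of 28 (ZAP70, CSK and UBASH3B) and in 14.0%. These matches describe the letters of these windows alone.

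Of 4 surface receptors tested, CD6 and CD28 fell with both inhibitors. CD6, which like CD5 tunes T-cell receptor signals, held 5.11, 5.599, 2.31 and 5.96 RPKM in DMSO, 0.591, 0.642, 0.681 and 0.655 RPKM with JQ1 and 1.22, 0.357, 0.523 and 1.25 RPKM with I-BET151. No inhibitor library reached the lowest DMSO library, and CD6 fell by 1.75 (adjusted p = 6.59e-06) and 1.62 (adjusted p = 1.73e-05). Neither CD6 nor CD28 would have passed the filter on the inhibitor libraries alone, so their separation and calls are descriptive. CD28 fell from 2.21 ± 1.11 RPKM to 0.435 ± 0.185 and 0.537 ± 0.211 RPKM, and the co-receptor CD4 from 2.92 ± 0.456 RPKM to 1.39 ± 0.698 and 1.46 ± 0.772 RPKM. The CD4 call with I-BET151 (adjusted p = 0.0229) was lost without the 3 steep-GC libraries (adjusted p = 0.111) or without either the DMSO (0.0532) or the I-BET151 (0.0862) library among them. The call with JQ1 was lost without JQ1 replicate 1 of experiment 1 (adjusted p = 0.0843) or replicate 2 of experiment 2 (0.0565).

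CD7 was not called with either inhibitor: it held 87.97, 81.3, 45.5 and 93.01 RPKM in DMSO, and 62.1 ± 2.43 and 61.5 ± 11.8 RPKM with JQ1 and I-BET151. Without DMSO replicate 1 of experiment 2, the lowest of the 4, it was called lower in both comparisons (differences -0.45 and -0.48, adjusted p = 0.0477 and 0.0329). The same held without the 3 libraries of steep GC slope (differences -0.47 and -0.38, adjusted p = 0.00431 and 0.0255). CD69 held 14.5, 15.3, 16.6 and 12.5 RPKM in DMSO, 18.9, 18.8, 19.9 and 22.7 RPKM with JQ1 and 25.2, 24.7, 55.4 and 25.3 RPKM with I-BET151. It rose by 1.01 with I-BET151 (adjusted p = 0.00225) and gave 0.43 with JQ1 (adjusted p = 0.173), although no JQ1 library was as low as any DMSO library. With only the 2 groups compared in the fit, the JQ1 difference of CD69 was called (adjusted p = 0.0249), while the I-BET151 calls of CD4 (0.0648), SIT1 (0.0557), PTPRC (0.127), PTPN6 (0.0841) and SH2D2A (0.104) were lost. The highest I-BET151 value of CD69 came from a steep-GC library, and without those 3 libraries its rise was 0.79 (adjusted p = 0.005).

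CD2, CD5, CD8A, CD8B and SKAP1 stayed under 1 RPKM on average in each LOUCY group and were not tested there. CD2 held 1 read in all over the DMSO libraries, 8 with JQ1 and 6 with I-BET151.

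Phosphatases and UBASH3 proteins had the lowest median difference of the groups with more than 1 tested member, -1.22 with JQ1 and -1.17 with I-BET151. These medians include UBASH3A, which would not have passed the filter on the inhibitor libraries alone, so the ranking is a description of the list. UBASH3B held 51.04, 50.5, 50.5 and 46.7 RPKM in DMSO, 15.4, 16.2, 16.03 and 15.7 RPKM with JQ1 and 14.6, 17.5, 20.5 and 11.9 RPKM with I-BET151. The JQ1 libraries lay within 1 RPKM of each other and far under DMSO, and UBASH3B fell by 1.59 (adjusted p = 3.9e-08) and 1.59 (adjusted p = 3.93e-08). Its paralog UBASH3A fell from 3.96 ± 0.615 RPKM to 0.814 ± 0.299 and 0.768 ± 0.249 RPKM, a fall that the filter favoured.

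PTPN22 held 19.4, 19.2, 29.4 and 14.6 RPKM in DMSO, 5.27, 8.303, 5.26 and 7.49 RPKM with JQ1 and 5.61, 5.19, 7.12 and 3.66 RPKM with I-BET151, and PTPN22 fell by 1.49 (adjusted p = 4.55e-05) and 1.74 (adjusted p = 8.95e-06). PTPN6 fell from 102 ± 18.1 RPKM to 50.7 ± 4.55 RPKM with JQ1 and 69.1 ± 16.2 RPKM with I-BET151. The PTPN6 call with I-BET151 was lost without I-BET151 replicate 1 of experiment 2 (adjusted p = 0.0562) and without DMSO replicate 2 of experiment 2 (adjusted p = 0.0625). PTPN7 fell by 0.63 and 0.85.

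PTPRC, the phosphatase that activates LCK, was the member of its group that did not fall. It held 113, 102, 144 and 113 RPKM in DMSO, 139, 142, 146 and 146 RPKM with JQ1 and 139.7, 155, 203 and 133 RPKM with I-BET151, so the groups overlapped. It rose by 0.41 with I-BET151 (adjusted p = 0.0143), a call lost without DMSO replicate 2 of experiment 1 (adjusted p = 0.0562), and gave 0.29 with JQ1 (adjusted p = 0.0764). The JQ1 difference was called without DMSO replicate 1 of experiment 2 (0.38, adjusted p = 0.0226).

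Of 6 effectors, VAV1, NFATC1, NFATC2 and NFATC3 fell with both inhibitors, and PLCG1 and RASGRP1 were not called. NFATC1, the calcineurin-dependent transcription factor with the largest fall of the 3, went from 2.63 ± 0.183 RPKM to 1.18 ± 0.1801 and 1.14 ± 0.446 RPKM. VAV1 fell by 0.52 and 0.73, NFATC2 by 0.55 and 0.53, and NFATC3 by 0.45 and 0.55. PLCG1 was at 3.84 ± 0.948 RPKM in DMSO and 4.78 ± 0.309 and 4.0 ± 0.905 RPKM with JQ1 and I-BET151, and RASGRP1 at 3.92 ± 1.25, 2.56 ± 0.695 and 2.87 ± 0.8804 RPKM. RASGRP1 was called lower with JQ1 without JQ1 replicate 2 of experiment 1 (difference -0.62, adjusted p = 0.0104) or DMSO replicate 2 of experiment 2 (-0.58, adjusted p = 0.0245). In GENCODE 29, 40.4% of NFATC3's exon bases lie opposite another gene's exons, and the libraries do not mark strand.

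JQ1 was set beside I-BET151, at doses that differ (250 and 500 nM). None of the 35 members was called by limma and 3 reached an unadjusted p under 0.05. Over all genes 0% were called higher and 0% lower, while 531 reached that unadjusted level. Members' differences ran from -0.59 for CD69 (95% interval -1.05 to -0.12) to 0.25 for ZAP70 (-0.14 to 0.65). For LCK the difference was -0.05 (-0.33 to 0.24), for LAT -0.12 (-0.48 to 0.25) and for TRAT1 -0.28 (-0.56 to -0.01). PTPN6 gave -0.41 (-0.76 to -0.07) and was called lower with JQ1 in experiment 1 alone (adjusted p = 0.0338). A missed threshold does not show that the inhibitors act alike on these genes.

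The experiments were also tested separately. Between the lines 22 members were higher and 12 lower in experiment 1, and 19 and 13 in experiment 2. With JQ1, 25 members were lower and 2 higher in experiment 1 alone, and 10 lower and 0 higher in experiment 2 alone. With I-BET151 the counts were 22 lower and 3 higher in experiment 1 and 13 lower and 1 higher in experiment 2. Over all genes the calls went the same way, from 3455 in experiment 1 alone to 392 in experiment 2 alone with JQ1 and from 2807 to 454 with I-BET151. All 26 members called with JQ1 and all 28 called with I-BET151 had the same sign in both experiments. They were called on both experiments together, which favours a shared sign, so this is no separate replication. LCK fell by 2.27 and 1.97 with JQ1 and by 1.98 and 2.16 with I-BET151 in experiments 1 and 2. The rise of THEMIS with JQ1 was 1.64 within experiment 1 (adjusted p = 2.35e-05), and within experiment 2 it was 1.20 (adjusted p = 0.103).

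No member's difference was called as differing between the experiments in any of the 5 comparisons by limma's interaction test. Over all genes that test called 0.025% for LOUCY against JURKAT, 0.00876% each for DMSO against untreated, JQ1 against DMSO and I-BET151 against DMSO, and 0% for JQ1 against I-BET151.

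**Figure D5:**
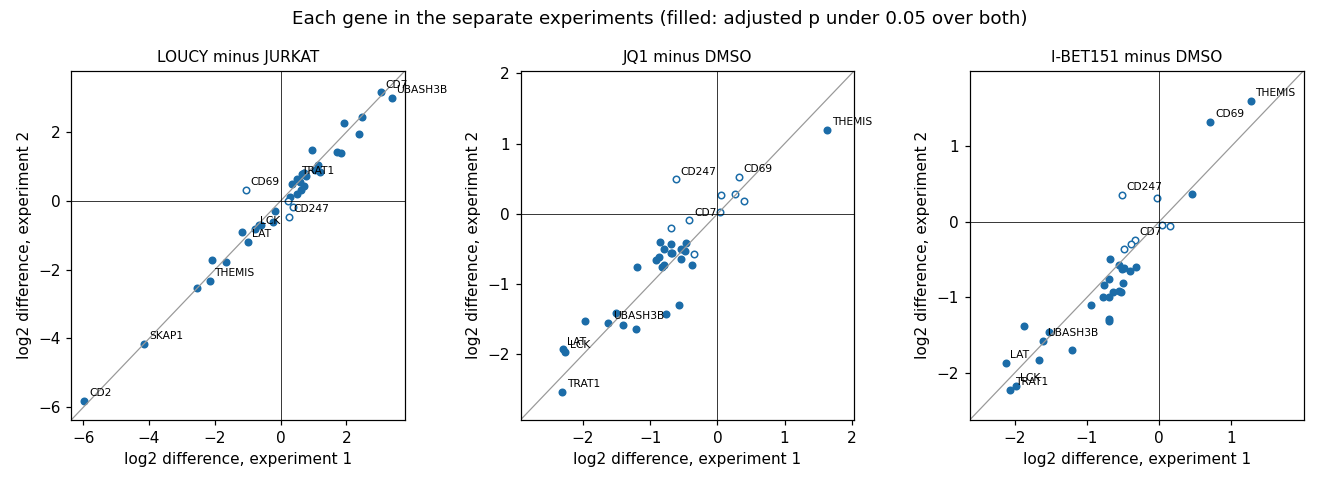
Log2 difference of each tested gene in experiment 1 (horizontal axis) and experiment 2 (vertical axis) for 3 comparisons, with the line of equal values in grey and filled points where the adjusted p over both experiments was under 0.05. The filled points share their sign between experiments, and CD69 in the line comparison and CD247 in all 3 panels lie on opposite sides of 0.

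Of 76 further genes of the pathway, 65 were in the table. Between the lines 27 of 55 tested were higher in LOUCY and 18 lower, 81.8% called against 73.1% of all genes. The higher ones with the smallest adjusted p were CD52, a surface glycoprotein of lymphocytes (674 ± 49.4 against 20.6 ± 2.48 RPKM), the receptor CD96 (56.1 ± 5.07 against 8.65 ± 1.36 RPKM) and the WASP partner WIPF1 (38.6 ± 7.99 against 5.998 ± 1.27 RPKM). The lower ones were PRKCA, a protein kinase C (0.643 ± 0.162 against 12.96 ± 1.11 RPKM), and the adaptors SLA (56.98 ± 4.54 against 235 ± 26.9 RPKM) and FYB (ADAP, 69.3 ± 2.57 against 131 ± 11.7 RPKM), all as LOUCY against JURKAT. PRKCA passed the filter only through JURKAT, so the filter favoured its difference and its call is descriptive.

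With JQ1, 17 of 53 tested further genes fell and 3 rose, and with I-BET151 19 fell and 6 rose. These are 37.7% and 47.2% called, against 26% and 26.3% of all genes. Their median difference was -0.12 and -0.22. CD96 (12.7 ± 1.61 against 54.8 ± 6.47 RPKM, JQ1 against DMSO), SLA (10.9 ± 1.77 against 43.9 ± 1.63 RPKM) and SLA2 (20.3 ± 0.841 against 61.04 ± 8.04 RPKM) fell, the last pair being adaptors that promote turnover of the receptor. They also fell with I-BET151, by 1.9, 1.93 and 1.77. CBLB, a ubiquitin ligase that limits T-cell activation, rose with JQ1 (7.03 ± 1.07 against 4.12 ± 0.63 RPKM) and with I-BET151 (6.903 ± 1.15 against 4.12 ± 0.63 RPKM). PRKCA was called higher with both, at 1.14 ± 0.104 RPKM with JQ1 and 1.18 ± 0.385 RPKM with I-BET151 against 0.606 ± 0.141 RPKM in DMSO. It passed the filter only through inhibitor libraries, so the filter favoured these calls and they are descriptive. ORAI1, a calcium channel subunit, rose with JQ1 by 0.45 (adjusted p = 0.0445), and the kinase PDPK1 rose with I-BET151 by 0.38 (adjusted p = 0.0125). With DMSO against untreated cells, and with JQ1 against I-BET151, 0 of 53 were called by limma, and 5 and 1 had an unadjusted p under 0.05.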

How the data were processed

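Polyadenylated RNA of 24 libraries was measured by Smart-seq2 with Nextera XT tagmentation, which marks no strand, per the labels' protocols. The deposited values are RPKM computed by the authors, with STAR 2.5.1b, featureCounts, Subread 1.4.5-p1, edgeR 3.10.5 and build hg38 per the submitters' processing notes. Which gene annotation and lengths were used was not given in the sources used here.

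From these values log2(RPKM + 1) was fitted with limma 3.58.1 in R 4.3.3 (empirical Bayes with a mean-variance trend, additive experiment term, two-sided), keeping genes that reached 1 RPKM in 4 or more of the fitted libraries. Untreated lines shared a fit of 12 libraries and the LOUCY groups a fit of 18. P-values were adjusted by Benjamini-Hochberg over all genes of the fit. The fits were checked on simulated data. In 100% of genes the values were whole multiples of 1 read within 0.01 reads, so reads could be recovered for the counts printed and for a voom alternative. Single reads carry counting error, so low genes are the least precise.

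The members and lists were chosen with earlier results of these data known. Library values are given for up to 6 higher and 6 lower called members per comparison with the largest difference and the same sign in both experiments, and for the CD3 chains, LCK and ZAP70. Of the further genes, up to 3 higher and 3 lower with the smallest adjusted p were named. GC content is that of the longest GENCODE 29 transcript, for 11645 genes. Positions and promoters are RefSeq's on GRCh38.p14. Alternatives covered the pseudocount, filter, scaling, samples, replicate block, moderation and test.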

Additional observations from a re-analysis of the deposited data

Results flagged for a closer look

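Within groups of 4 to 6 libraries, 10 of 170 combinations of member and group held a library far from the rest (Dixon's test at the 95% level), and chance gives about 1 in 20. Of these, 6 were in DMSO. Replicate 1 of experiment 2 was low for LCK (136.9 RPKM, the others 188 to 193), PTPN6 (74.7 RPKM, the others 108 to 114) and PRKCQ (33.9 RPKM, the others 39.0 to 39.5), and high for RASGRP1 (5.79 RPKM, the others 3.22 to 3.38). UBASH3B was low in replicate 2 of experiment 2 (46.7 RPKM), and FYN was high in replicate 2 of experiment 1 (13.5 RPKM). With I-BET151, replicate 1 of experiment 2 was high for CD69 (55.4 RPKM, the others 24.7 to 25.3) and low for PTPN6 (44.9 RPKM, the others 75.6 to 78.9). With JQ1, GRAP2 was low in replicate 1 of experiment 2 (4.79 RPKM) and PLCG1 in replicate 2 of experiment 1 (4.32 RPKM). Replicate 1 of experiment 2 of DMSO and of I-BET151 had steep GC slopes, and RASGRP1 and CD69, high in them, have transcripts of 42.7% and 36.5% GC, while LCK, PTPN6 and PRKCQ, low in DMSO, have 56.6%, 59.5% and 47.5%, the last close to the 47.7% median of all genes; the part of GC content in these values was not tested.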

How the results depend on the processing

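Counts of members between the lines stayed within 1.5 times the reported counts under the alternatives run, and no member's called difference changed sign. With JQ1, the count of higher members was 2 with quantile normalization, with voom on recovered reads, with only the groups compared, without the 3 steep-GC libraries and in experiment 1 alone, and 0 in experiment 2 alone; lower members numbered 10 in experiment 2 alone. With I-BET151, experiment 2 alone gave 1 higher and 13 lower. With only the groups compared, I-BET151 gave 2 higher and 20 lower members, and 1532 calls over all genes against 2999. Experiment 1 alone gave 1 lower member (PTPN6) with DMSO relative to untreated cells, and 1 (PTPN6) with JQ1 relative to I-BET151. Each experiment alone has fewer libraries. Over single members and all settings other than left-out libraries, 11 values lost and 3 gained a call between the lines, 19 and 9 with JQ1, and 25 and 3 with I-BET151.

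Leaving out 1 library at a time gave 21 to 22 higher and 13 to 14 lower members between the lines, 1 to 2 higher and 23 to 27 lower with JQ1, and 2 to 3 higher and 23 to 26 lower with I-BET151. The second higher member with JQ1 appeared without DMSO replicate 1 of experiment 2. Interactions with the experiment between the lines numbered 0 to 1, the 1 without untreated LOUCY replicate 3 of experiment 2. Where an arm of an experiment kept 1 library, it was assumed to vary like the others.

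Correlations between deviations of same-numbered replicates ran from -0.56 to 0.713, and in no comparison were they over 0.1 for all pairs. The highest, 0.713, was for I-BET151 and DMSO in experiment 2, where replicate 1 of both had a steep GC slope. Where both arms hold 2 replicates in an experiment, both pairs must give the same value. These correlations therefore cannot settle whether the numbers pair the libraries. With the replicate block, 21 members were higher and 13 lower between the lines (CD3G lost, adjusted p = 0.0728), and the counts for each inhibitor changed by less than 1.5 times. Over all genes, DMSO against untreated cells gave 20 calls, 4 with the block, 57 in experiment 1 alone and 0 in experiment 2 alone. Of the 20 calls 15% were higher, and of 15 calls with quantile normalization 26.7%, too few calls to read a shift. Voom moved the median of all genes between the lines from -0.02 to -0.12.

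Genes under 1 RPKM rest on few reads: CD2 had 3 reads in untreated LOUCY. Members under 1 RPKM on average in every LOUCY group were not tested within LOUCY. CD6, CD28 and UBASH3A were tested, although each inhibitor group held only 41 to 58 reads of each.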
